A study of Mus musculus with 3 samples.

Results

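The 10 genes described here encode the NF-kB transcription factor subunits (Nfkb1, Nfkb2, Rel, Rela and Relb), members of the IkB family (Nfkbia, Nfkbiz and Bcl3) and the feedback genes Tnfaip3 and Birc3. They were taken by name from 21887 protein-coding genes of RefSeq (GRCm38.p6), and every H3K27ac peak within 100 kb of one of their gene bodies was examined. That gave 126 of 37765 peaks of the untreated list and 132 of 38793 peaks of the post-caerulein list. The windows of Relb and Bcl3, neighbours on chromosome 7, shared 2 peaks in each list, which were counted once in the joint totals. Acetylation of histone H3 at lysine 27 marks active promoters and enhancers and was measured by chromatin immunoprecipitation and sequencing. All material was pancreatic epithelial cells grown as spheroids, that is, as rounded cultures, from wild-type C57BL/6J mice. One H3K27ac library came from untreated mice and the other from mice earlier given caerulein, an analogue of cholecystokinin used to bring about acute pancreatitis; an input library of untreated spheroids was not used here. Both cultures were grown in the same medium, whose additions included EGF, cholera toxin and hydrocortisone. The age of the mice, the number pooled per library, the caerulein dose and the time since caerulein are not given in the sources used here. With 1 H3K27ac library per condition there is no replicate error, and the differences are described without a test.

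NF-kB proteins act as dimers that IkB proteins hold in the cytoplasm. Signals from tumour necrosis factor, interleukin-1 or Toll-like receptors activate the IkB kinase, IkB is degraded, and the freed dimers enter the nucleus and bind kappaB sites in DNA. Among the genes they switch on are their own inhibitors and several of their own subunits, which gives the pathway its feedback loops. In the pancreas NF-kB is activated early in acute pancreatitis, in acinar cells and in infiltrating immune cells.

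The promoters of the genes show where such sites lie. The supplied RefSeq table holds 10 start sites for 7 of the genes (Nfkb2, Rel, Rela, Nfkbia, Tnfaip3, Birc3 and Bcl3), and the 250 bases before each start were searched on both strands for the kappaB consensus. Matches were found in 6 of the 10 windows and in 4 of the 7 genes, against 4.18% of 21263 such windows and 4.82% of 17492 protein-coding genes. All 10 windows lay wholly inside a peak of both lists, as did 50.6% of all windows. The promoters of 5 genes are printed 5′ to 3′ on the gene's strand, ending at the base before the start, with each match to the consensus in capitals and overlapping matches joined in 1 run. Nfkb2, Rel, Nfkbia and Tnfaip3 are shown because they hold matches, and Birc3 because its neighbourhood had the highest ratio of covered length between conditions.
Nfkb2 promoter: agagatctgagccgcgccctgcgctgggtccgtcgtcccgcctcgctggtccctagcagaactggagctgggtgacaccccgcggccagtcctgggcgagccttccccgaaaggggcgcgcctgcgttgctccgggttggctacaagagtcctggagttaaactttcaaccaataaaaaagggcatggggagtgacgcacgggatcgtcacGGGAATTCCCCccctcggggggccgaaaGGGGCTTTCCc
Rel promoter: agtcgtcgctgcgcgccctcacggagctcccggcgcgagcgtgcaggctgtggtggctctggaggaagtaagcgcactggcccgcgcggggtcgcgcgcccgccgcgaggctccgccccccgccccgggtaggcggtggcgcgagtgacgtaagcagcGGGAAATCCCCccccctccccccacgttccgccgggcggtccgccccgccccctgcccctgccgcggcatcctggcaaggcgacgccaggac
Nfkbia promoter: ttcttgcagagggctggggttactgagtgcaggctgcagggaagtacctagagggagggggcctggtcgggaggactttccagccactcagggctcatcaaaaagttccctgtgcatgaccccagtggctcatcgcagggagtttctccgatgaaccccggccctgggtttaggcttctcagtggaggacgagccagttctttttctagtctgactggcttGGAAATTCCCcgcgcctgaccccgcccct
Tnfaip3 promoter: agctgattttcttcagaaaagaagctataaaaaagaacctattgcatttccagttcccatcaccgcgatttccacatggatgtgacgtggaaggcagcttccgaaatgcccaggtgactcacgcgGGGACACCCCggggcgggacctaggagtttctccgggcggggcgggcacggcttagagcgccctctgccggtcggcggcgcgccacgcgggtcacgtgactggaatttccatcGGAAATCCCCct
Birc3 promoter: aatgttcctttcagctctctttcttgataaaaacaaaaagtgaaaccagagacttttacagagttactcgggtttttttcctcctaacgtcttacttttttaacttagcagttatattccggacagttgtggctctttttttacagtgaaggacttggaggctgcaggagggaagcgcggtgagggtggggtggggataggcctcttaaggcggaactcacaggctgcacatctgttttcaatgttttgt
In GRCm38.p6 these are chr19:46304487-46304736 (plus strand) for Nfkb2, chr11:23770970-23771219 (minus strand) for Rel, chr12:55492648-55492897 (minus strand) for Nfkbia, chr10:19015411-19015660 (minus strand) for Tnfaip3 and chr9:7873171-7873420 (minus strand) for Birc3. Nfkb2 has 3 windows in the table, each with at least 1 match, and Tnfaip3 has 2, of which the other holds none; the window with most matches is printed for both. In the printed Nfkb2 window the matches began 39, 38 and 11 bases before the start, the first pair overlapping. Rel had overlapping matches beginning 92 and 91 bases before its start, and Nfkbia had 1 match beginning 29 bases before. In the Tnfaip3 promoter 1 match began 125 and the other 12 bases before the start. A match describes letters only, and the letters of Birc3, Rela and Bcl3 hold none in these windows.

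The list gives each peak a start, an end and a score. The score has no stated definition, so below it only ranks a peak within its own list, where the median was 681.38 for untreated and 526.37 for post-caerulein peaks and the highest 3233.06 for both. Many peaks of both lists share the value 3100.00, so ranks above it say little. Covered length, the number of bases under peaks within 100 kb of the gene body, was used to compare the conditions. A peak with no base of overlap in the other list is called untreated-only or post-caerulein-only. Sequencing depth is unknown, because the lists carry no read counts. More cells with a mark and more mark per cell cannot be told apart in such bulk material.

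Around most of the 10 genes H3K27ac covered more than around a typical gene. The median covered length was 56.0 kb untreated and 59.2 kb post-caerulein, against 17.7 and 17.9 kb over all protein-coding genes, and none of the 10 was below the untreated median of all genes. Post-caerulein, Rel (17.7 kb) was below the median of all genes. The medians of all genes include genes with no peak nearby. Neither gene length nor the number of neighbouring genes was matched. Peaks of at least 10 kb made up 11 of the 126 untreated peaks (8.73%; 4.53% of the whole list) and 10 of the 132 post-caerulein peaks (7.58%; 4.83% of the whole list). Together the windows were covered over 550.4 kb untreated and 569.3 kb post-caerulein, 103.4% of the untreated length. The windows of all protein-coding genes gave 103.9%, so the sum over the 10 genes differed between conditions about as much as the genome did.

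Most peaks at these genes were in both lists. Untreated-only peaks numbered 11 of 126 (8.73%, exact 95% interval 4.44 to 15.1%), against 14.3% of the whole untreated list. Post-caerulein-only peaks numbered 17 of 132 (12.9%, 7.68 to 19.8%), against 17.5% of the whole post-caerulein list. Both intervals include the share of the whole list. They reflect the number of peaks alone, treat peaks as independent and hold no error between libraries. At least 1 post-caerulein-only peak lay near 8 of the 10 genes (45.5% of all genes) and at least 1 untreated-only peak near 7 (43.7% of all genes). The shares of all genes, here and below, include genes with no peak nearby. They are not matched for covered length, which was greater around the 10 genes (untreated median 56.0 kb, all genes 17.7 kb). Post-caerulein-only peaks were the more numerous kind at 4 genes, Nfkbia, Nfkbiz, Tnfaip3 and Birc3 (30.0% of all genes). Untreated-only peaks were the more numerous kind at 3 genes, Rela, Relb and Bcl3 (26.8% of all genes).

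**Figure D1:**
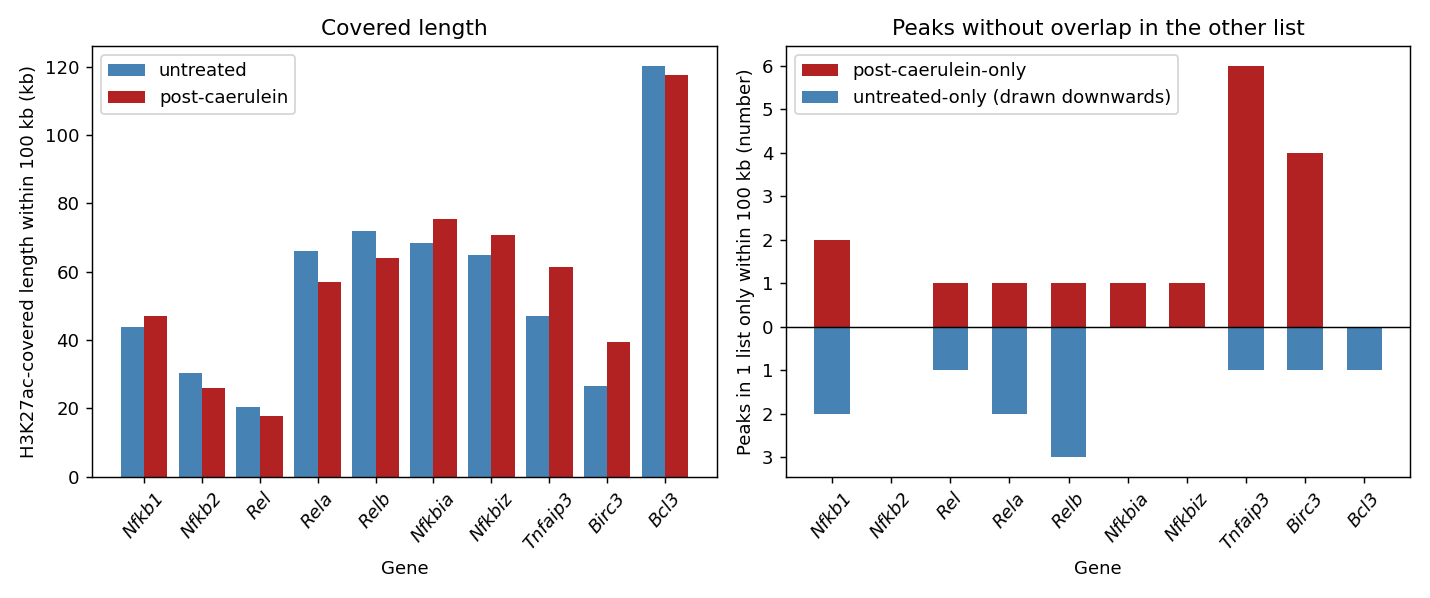
Left, bars give the H3K27ac-covered length (kb) within 100 kb of each gene body in the untreated and the post-caerulein library, 1 library each and so without error bars. Right, bars give the number of post-caerulein-only peaks (upwards) and untreated-only peaks (downwards) per gene: Tnfaip3 has 6 and 1, Birc3 has 4 and 1, and Nfkb2 has neither.

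The difference between conditions did not run one way across the roles. Around the 5 subunit genes covered length was 232.5 kb untreated and 211.5 kb post-caerulein (91.0%), with 8 untreated-only and 5 post-caerulein-only peaks. Around the 5 IkB-family and feedback genes it was 327.2 kb and 364.8 kb (111.5%), with 3 untreated-only and 12 post-caerulein-only peaks. These sums add the windows per gene, so the 2 peaks per list shared by the Relb and Bcl3 windows enter both groups. These values rest in part on single genes: the subunit genes without Rela and Relb gave 95.9%, and the other group without Tnfaip3 and Birc3 gave 104.1%. The windows of all protein-coding genes gave 103.9%. Of the 12 post-caerulein-only peaks, 6 lay near Tnfaip3 and 4 near Birc3. List-only peaks made up 14.3% of the whole untreated list and 17.5% of the whole post-caerulein list. Their share within each role group was not calculated. The grouping by role was read from the data after the values per gene had been seen. Per gene, 5 were longer and 5 shorter post-caerulein, with a median difference of 0.31 kb (all genes 0.0 kb, with quartiles at -1.5 and 2.2 kb).

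Nfkb1 encodes p105, the precursor of the DNA-binding subunit p50. Its gene body spans chr3:135584655-135691969, and its neighbourhood had 13 peaks over 43.7 kb untreated and 11 peaks over 46.9 kb post-caerulein. Within 100 kb, Nfkb1 was thus the only subunit gene with a longer covered length after caerulein. Its difference was 3.2 kb within 100 kb and 0.1 kb within 10 kb, where Rela (1.5 kb) and Relb (0.5 kb) were also longer. Its higher-coordinate end lay under a peak of 4.6 kb untreated and 5.7 kb post-caerulein, and a second peak inside the gene measured 9.2 and 9.3 kb. A further difference lay 77.5 kb away in Manba, a lysosomal mannosidase gene, where 3 untreated peaks over 7.2 kb stood in place of 1 post-caerulein peak of 9.4 kb. One untreated-only peak (chr3:135679778-135681637, score 134.26) and one post-caerulein-only peak (chr3:135633008-135633883, score 56.97) lay inside Nfkb1. The untreated-only one was 354 bp from a post-caerulein peak, whereas the post-caerulein-only one was 23937 bp from any untreated peak. The remaining list-only peaks of the locus, 1 of each kind, lay in Manba with scores of 71.23 (untreated) and 60.36 (post-caerulein).

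Nfkb2 encodes p100, the precursor of p52 in the non-canonical arm of the pathway. The gene lies at chr19:46300994-46312400 on the plus strand, and it had 8 peaks in each list and no list-only peak. Covered length was 30.3 kb untreated and 26.0 kb post-caerulein, a difference of -4.3 kb. The peak over its promoters, including the printed one with kappaB matches, measured 4.6 kb untreated and 4.5 kb post-caerulein. A peak just upstream of the gene was 3.0 kb long untreated and 1.3 kb post-caerulein, the only place at Nfkb2 where the lengths differed by 1.5-fold or more. Its widest peak, 35.3 kb downstream in the post-caerulein list and nearest to Mfsd13a, measured 6.9 and 5.8 kb.

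Rel encodes c-Rel, a subunit with a transactivation domain best known from lymphocytes. It lies at chr11:23736847-23770969 on the minus strand and had the shortest covered length of the 10 genes, 20.5 kb in 6 untreated peaks and 17.7 kb in 7 post-caerulein peaks. The promoter peak, which holds the printed sequence, measured 5.8 kb untreated and 4.7 kb post-caerulein. Downstream, in Pus10, a single untreated peak of 6.8 kb corresponded to a pair of post-caerulein peaks covering 5.1 kb. Its untreated-only peak, 9.9 kb downstream in Pus10, had a score of 63.27. The post-caerulein-only peak, 75.8 kb downstream in Pex13, had a score of 58.23. Both stood near the bottom of their lists, with 5.0% and 3.8% of peaks scoring lower.

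Rela encodes p65, the main transactivating subunit of the canonical dimer. It lies at chr19:5637442-5648134 on the plus strand, among 12 other protein-coding genes within 100 kb, and had 15 peaks in each list. Covered length was 66.0 kb untreated and 56.9 kb post-caerulein, the most negative difference among the 10 genes (-9.1 kb). The direction depended on how peaks were assigned. Within 10 kb of the gene the difference was 1.5 kb, with the post-caerulein-only peak near Sipa1 inside that window, and over the peaks nearest to Rela itself it was -0.8 kb. The peak over the Rela promoter measured 4.7 kb untreated and 4.2 kb post-caerulein, the peak over its far end 2.8 and 2.5 kb, and the covered share of the body was 36.1% and 27.6%. Part of the difference lay 72.3 kb upstream at Ovol1, a zinc finger gene of epithelia, where 1 untreated peak of 13.1 kb corresponded to 2 post-caerulein peaks covering 9.6 kb. Untreated-only peaks lay 21.1 kb upstream near Kat5 (score 242.16) and 55.4 kb downstream in Kcnk7 (score 204.70). The single post-caerulein-only peak lay 5.4 kb downstream in or near Sipa1, with a score of 272.33.

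Relb encodes the partner of p52 in the non-canonical dimer. Its gene body is chr7:19606217-19629438, in a region with 15 other protein-coding genes within 100 kb, and it had 20 untreated and 19 post-caerulein peaks. Covered length was 71.9 kb untreated and 64.0 kb post-caerulein, a difference of -7.9 kb. At Relb too the direction depended on the distance: within 10 kb covered length was 0.5 kb longer post-caerulein, and over the peaks nearest to Relb itself it was 2.6 kb longer. The peak over the higher-coordinate end of Relb measured 3.0 kb untreated and 5.5 kb post-caerulein. Beyond the other end, near Clasrp, 1 untreated peak of 6.2 kb corresponded to 2 post-caerulein peaks covering 4.5 kb. The 3 untreated-only peaks had scores of 73.93 (in or near Ppp1r37, 62 bp from a post-caerulein peak), 89.88 (in or near Clasrp) and 184.60 (56.6 kb beyond the higher end). Relb's single post-caerulein-only peak, 64.9 kb beyond the higher end, had a score of 71.96.

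**Figure D2:**
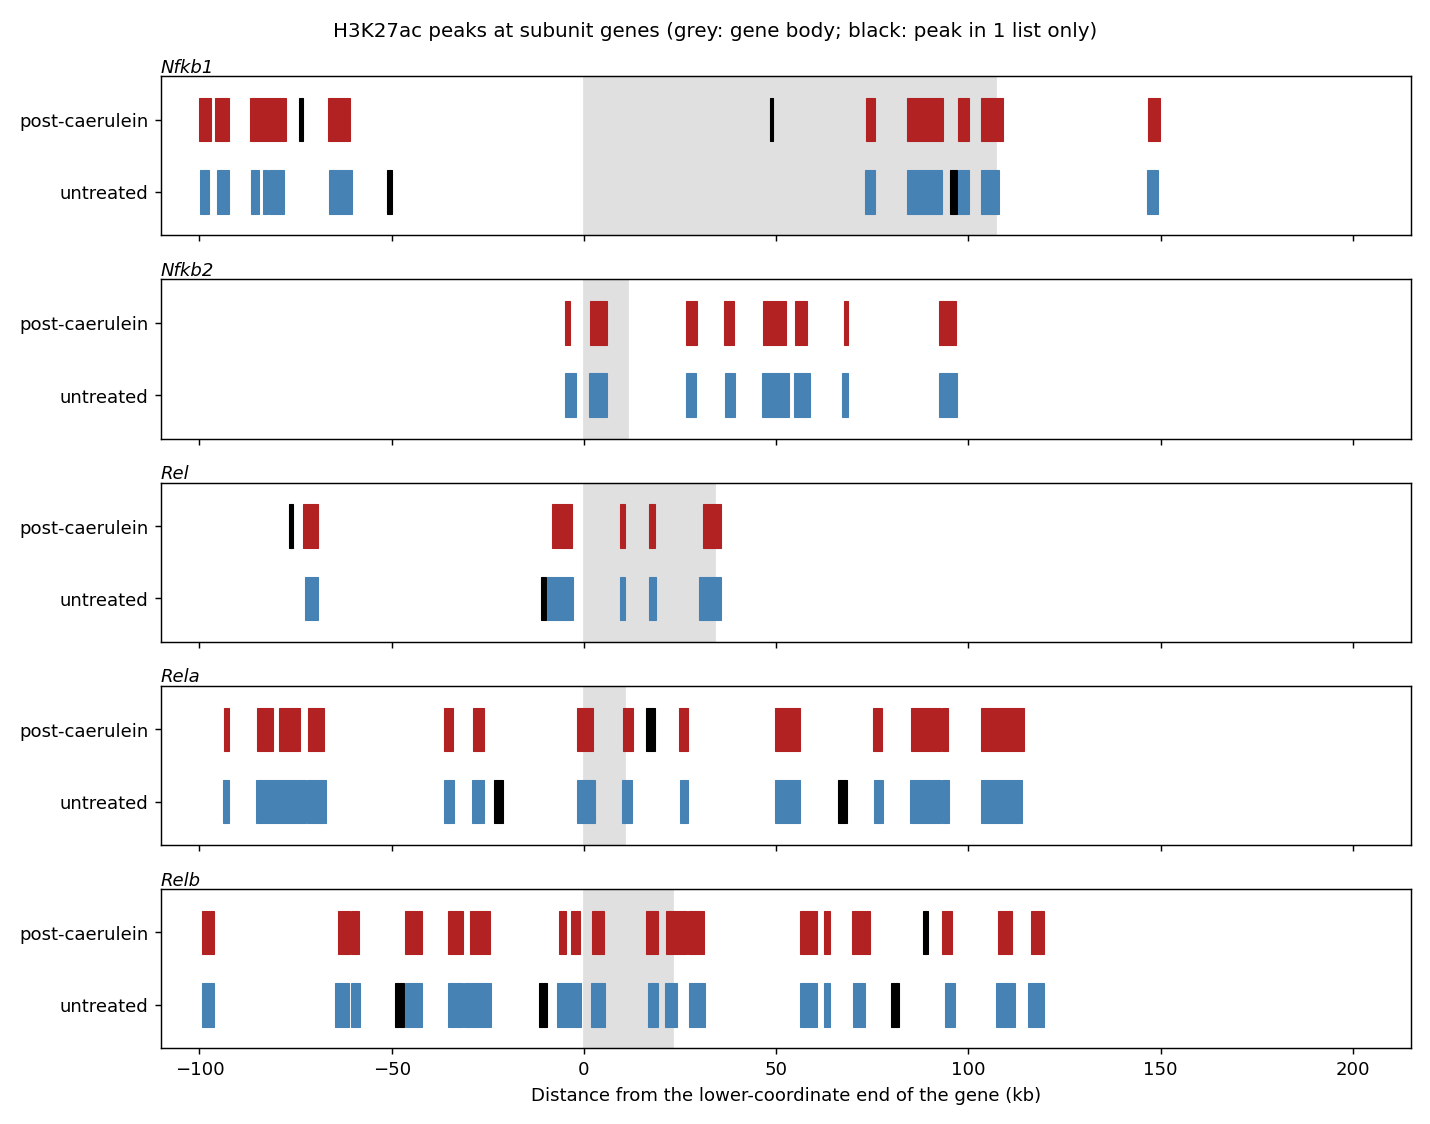
Each row pair maps the H3K27ac peaks of the untreated (lower track, blue) and post-caerulein (upper track, red) library around 1 subunit gene, by distance in kb from the gene's lower-coordinate end. Grey marks the gene body and black a peak found in 1 list only: 8 untreated-only and 5 post-caerulein-only peaks, most of them narrow and outside the gene bodies.

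Nfkbia encodes IkBalpha, the inhibitor that retains Rela-p50 dimers in the cytoplasm and that NF-kB itself induces. The gene, chr12:55489409-55492647 on the minus strand, was covered by H3K27ac over 100.0% of its body in both conditions. The peak over the gene measured 15.9 kb untreated and 20.4 kb post-caerulein. A second untreated peak adjoined it, so that the covered length at this place was 19.3 kb untreated and 20.4 kb post-caerulein. Within 100 kb, 11 peaks covered 68.5 kb untreated and 11 peaks covered 75.4 kb post-caerulein, 6.9 kb longer. Most of this lay away from the gene, since within 10 kb the difference was 0.6 kb. Broad peaks also lay downstream, 1 nearest to the proteasome gene Psma6 (16.4 kb untreated, 17.7 kb post-caerulein) and 1 between it and Nfkbia (13.3 kb and 12.3 kb). The post-caerulein-only peak of Nfkbia lay 61.3 kb downstream with a score of 273.79. A shared peak farther downstream, at chr12:55404954-55406650, was 1.0 kb long untreated and 1.7 kb post-caerulein.

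Nfkbiz encodes IkBzeta, an inducible nuclear IkB protein that works with p50 to switch on a secondary set of inflammatory genes, among them Lcn2. Its body is chr16:55811375-55838954, and 68.0% of it was covered untreated and 68.4% post-caerulein. The broadest peak, over the lower-coordinate end, measured 20.6 and 20.7 kb, and the peak over the other end 2.4 and 2.8 kb. The peaks over the gene itself thus had similar lengths in both libraries. Covered length within 100 kb was 64.9 kb in 18 peaks untreated and 70.9 kb in 20 peaks post-caerulein, 6.0 kb longer. The post-caerulein-only peak at chr16:55798055-55802429, 8.9 kb beyond the lower end, was 4375 bp wide with a score of 700.74. It was the widest list-only peak at the 10 genes and the single one above its list's median score. The nearest untreated peak was 3010 bp away. A shared peak 37.6 kb beyond the lower end was 2.5 kb long untreated and 4.9 kb post-caerulein, and a farther one on that side was 1.4 kb untreated and 0.9 kb post-caerulein.

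Bcl3 encodes an atypical nuclear IkB protein that binds p50 and p52 homodimers. Its neighbourhood, around chr7:19808462-19822824 on the minus strand, holds 8 other protein-coding genes within 100 kb. It had the longest covered length of the 10 genes, 120.1 kb untreated and 117.5 kb post-caerulein in 15 peaks each. One peak of 40.4 kb untreated and 39.8 kb post-caerulein ran across the promoter and most of the body. Most of this peak lay upstream, outside the gene. It covered 11.9 kb of the 14.4 kb body untreated and 12.2 kb post-caerulein. By width it ranked 37 of 37765 untreated peaks and 45 of 38793 post-caerulein peaks, which places it among the broadest acetylated domains of these spheroids. The difference in covered length was -2.6 kb within 100 kb and 0.5 kb within 10 kb. Upstream, near Ceacam16, 1 untreated peak of 13.0 kb corresponded to 2 post-caerulein peaks covering 9.8 kb, while a peak farther upstream was 3.9 kb untreated and 6.0 kb post-caerulein. The untreated-only peak, 28.6 kb upstream in Gm19345 with a score of 134.65, began just past the end of the 40.4 kb peak and 906 bp from the post-caerulein one.

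Tnfaip3 encodes A20, a ubiquitin-editing enzyme that shuts off signalling to the IkB kinase and is induced by NF-kB. It lies at chr10:19000910-19015410 on the minus strand, and no other protein-coding gene lies within 100 kb. The body was almost fully covered in both conditions (99.9% untreated and 99.5% post-caerulein), under a peak of 15.0 kb untreated and 15.5 kb post-caerulein that also holds the printed promoter with its 2 kappaB matches. The lengths over the gene itself were thus close, and the difference lay in the surrounding region. Within 100 kb, 14 peaks covered 47.1 kb untreated and 17 peaks covered 61.5 kb post-caerulein, 1.31-fold longer. The difference of 14.4 kb was 3.1 kb within 50 kb and 1.2 kb within 10 kb.

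In the region around Tnfaip3, 6 peaks were post-caerulein-only and 1 was untreated-only. As many post-caerulein-only peaks or more were found near 310 of all protein-coding genes (1.42%). That share is not matched for post-caerulein covered length, which was 61.5 kb at Tnfaip3 and 17.9 kb at the median gene. They lay on both sides of the gene. On the downstream side their distances were 82.9 kb (score 119.07, nearest to Perp), 52.6 kb (336.28) and 46.9 kb (155.90), and on the upstream side 45.6 kb (50.91), 49.2 kb (59.76) and 78.0 kb (196.96). The one 52.6 kb downstream was 133 bp from an untreated peak and the one 78.0 kb upstream was 833 bp from one, while the remaining 4 were 2193 bp or more away. All 6 scored below the median of their list. The untreated-only peak, 12.2 kb upstream, had a score of 118.27. Between the downstream ones, 2 untreated peaks covering 7.8 kb corresponded to 1 post-caerulein peak of 11.6 kb at chr10:18927555-18939202. A shared peak of 5.9 kb untreated and 6.0 kb post-caerulein, 26.9 kb upstream in the post-caerulein list, differed little.

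Birc3 encodes cIAP2, a ubiquitin ligase of the tumour necrosis factor receptor complex that is induced by NF-kB and limits cell death. It lies at chr9:7847468-7873205 on the minus strand, beside its paralogue Birc2 and near Tmem123 and Yap1. Covered length was 26.6 kb in 8 untreated peaks and 39.4 kb in 11 post-caerulein peaks, 1.48-fold longer and the largest ratio of the 10 genes. A ratio as high was found for 6.49% of genes with peaks in both lists, and one as high as that of Tnfaip3 for 12.0%. The promoter peak was 4.1 kb untreated and 4.6 kb post-caerulein, but the covered share of the gene body went from 28.2% untreated to 44.2% post-caerulein. Inside the body, 2 post-caerulein-only peaks (scores 98.22 and 70.42) lay beside 2 shared peaks that measured 2.1 and 2.4 kb untreated and 2.5 and 2.9 kb post-caerulein. The higher-scored of these list-only peaks was 834 bp from an untreated peak.

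In kb, the largest difference at a place marked in both lists at any of the 10 genes lay downstream of Birc3, in or near Birc2; by fold, the place upstream of Nfkb2 differed more (2.34-fold longer untreated). A shared peak there, at chr9:7832096-7840074, measured 3.7 kb untreated and 8.0 kb post-caerulein, 2.14-fold longer. Next to it lay the post-caerulein-only peak chr9:7827381-7831537, 4157 bp wide with a score of 488.42, higher than 48.7% of its list. The fourth post-caerulein-only peak lay 89.6 kb upstream in Yap1 (score 58.97, 559 bp from an untreated peak), and the untreated-only peak lay 70.9 kb upstream in Yap1 (score 75.83). As many post-caerulein-only peaks (4) or more were found near 4.98% of all genes, a share again not matched for covered length. A longer post-caerulein length at Birc3 was seen at every distance tried, at 5.6 kb within 10 kb and 13.4 kb within 50 kb of the gene. It was 4.6 kb over the peaks nearest to Birc3 itself, as several of the peaks lie nearer to Birc2.

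**Figure D3:**
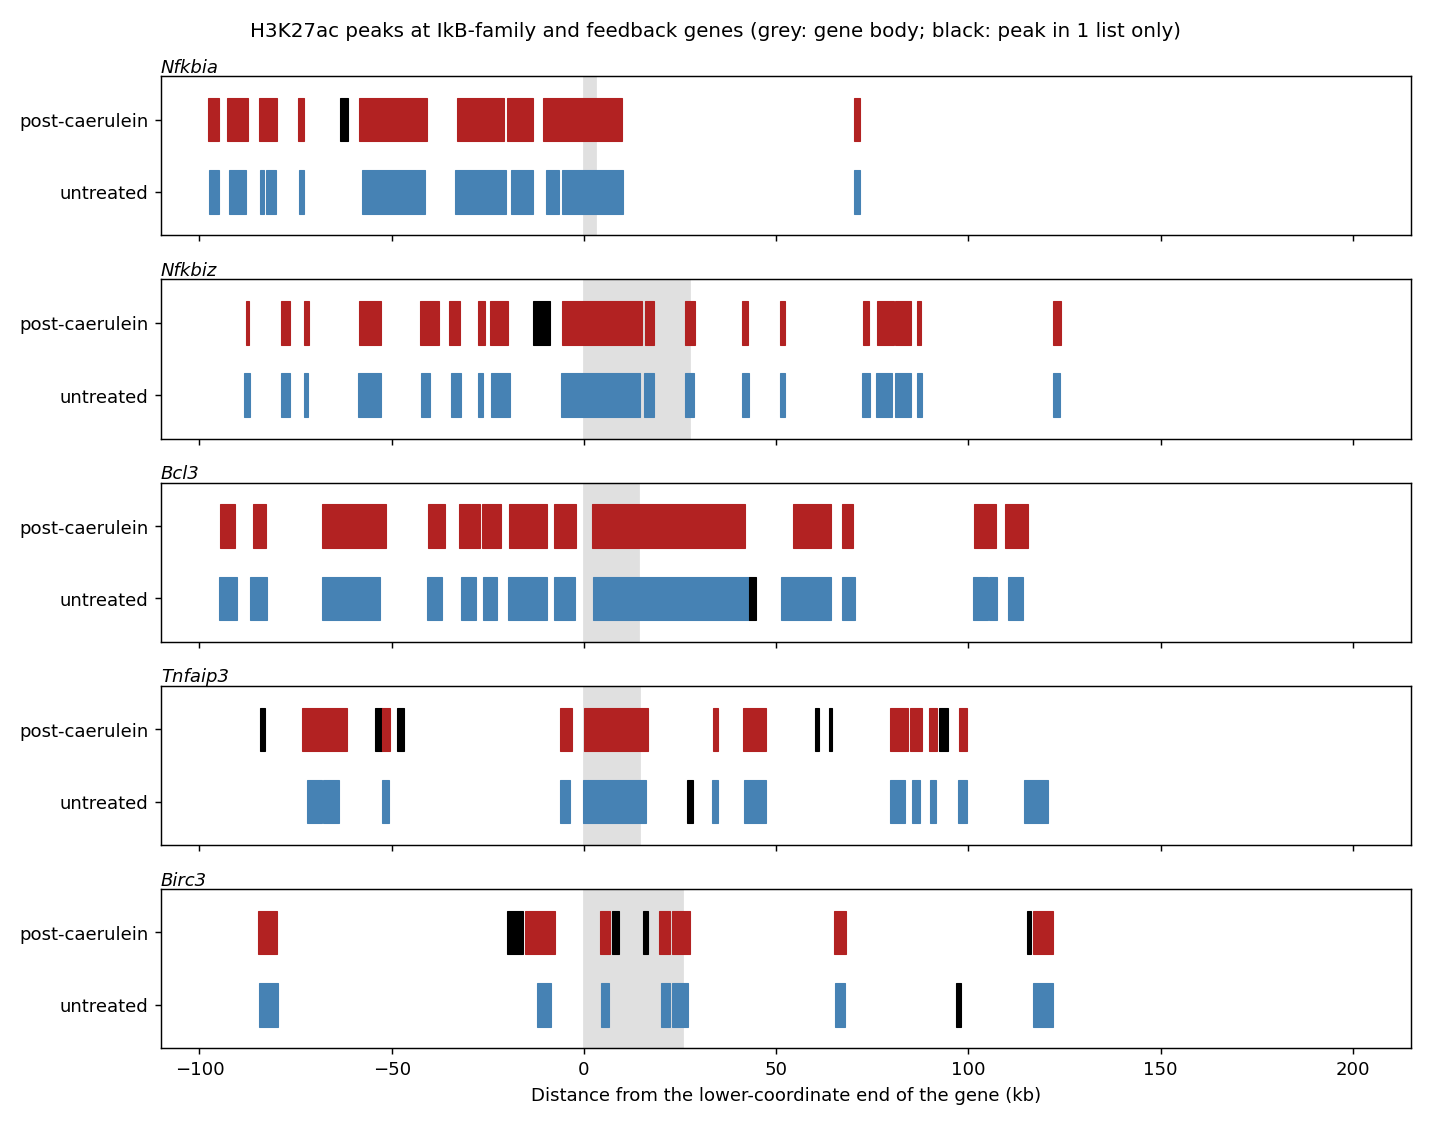
Each row pair maps the H3K27ac peaks of the untreated (lower track, blue) and post-caerulein (upper track, red) library around 1 IkB-family or feedback gene, by distance in kb from the gene's lower-coordinate end. Grey marks the gene body and black a peak found in 1 list only: 3 untreated-only and 12 post-caerulein-only peaks, 10 of the latter at Tnfaip3 and Birc3.

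Tnfaip3 and Birc3 were the only ones of the 10 genes whose covered length was at least 25% longer post-caerulein (15.0% of the 17856 genes with peaks in both lists). None of the 10 was at least 25% longer untreated (13.0% of those genes). The lowest ratios, 0.86 at Nfkb2, Rel and Rela, were reached or undercut by many genes, for example 3361 for Nfkb2. Without Tnfaip3 the members' windows together gave 100.9% of the untreated length, without Birc3 101.1%, and without both 98.23%. The sum over the other 8 genes was therefore shorter, not longer, post-caerulein.

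Peaks found in both lists were compared at 110 places. At 5 of them the covered length was at least 1.5-fold longer post-caerulein (8.49% of 30224 such places genome-wide), 1 each at Relb, Nfkbia, Nfkbiz, Birc3 and Bcl3. At 2 places, at Nfkb2 and Nfkbiz, it was at least 1.5-fold longer untreated (5.52% genome-wide). The remaining 103 differed by less. The median place measured 98.6% of its untreated length post-caerulein, against 102.0% genome-wide. At 8 places the number of peaks differed, with more untreated peaks at Nfkb1, Nfkbia and Tnfaip3 and more post-caerulein peaks at Rel, Rela, Relb, Nfkbiz and Bcl3. All 3 of the first were longer and all 5 of the second shorter in total post-caerulein. This direction is largely built in, because a joined peak also covers the bases between the peaks of the other list. The genome-wide share of places with unequal peak numbers was not counted.

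The list-only peaks were narrow and low in rank. Untreated-only ones had a median width of 1860 bp (1093 to 2373) and post-caerulein-only ones 1387 bp (876 to 4375), against 3414 and 3244 bp for the shared peaks at these genes. Over the whole lists, list-only peaks had median widths of 1536 bp untreated and 1464 bp post-caerulein, so narrow list-only peaks are not particular to these genes. Their median scores were 118.27 and 98.22, above 18.3% and 16.4% of their lists. At or above the list's median score there were 0 untreated-only peaks and 1 post-caerulein-only peak, the one beside Nfkbiz. With that limit the counts at Tnfaip3 and Birc3 are 0. Within 1 kb of a peak of the other list lay 3 of the untreated-only and 4 of the post-caerulein-only peaks. The gene itself was the nearest protein-coding gene for 2 of the 11 untreated-only and 9 of the 17 post-caerulein-only peaks, and 1 and 3 of them lay inside its body.

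**Figure D4:**
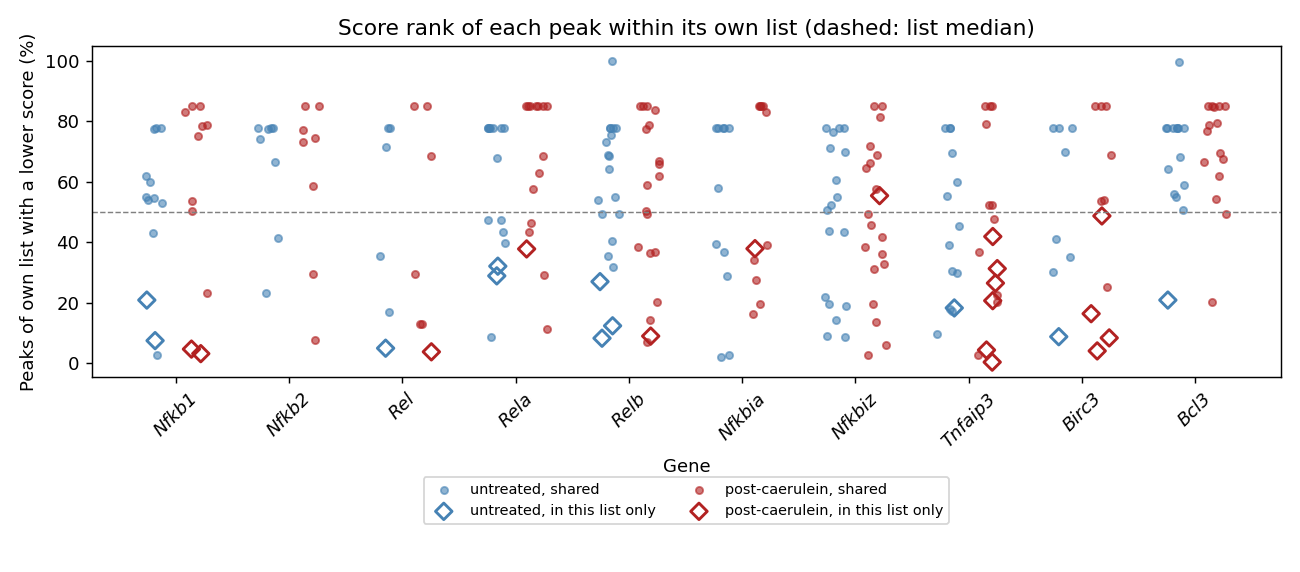
Each point is 1 peak near the gene named below it, and its height is the percentage of peaks of its own list with a lower score; sideways scatter within a column has no meaning. Diamonds are peaks found in 1 list only, and all of them but 1 post-caerulein peak at Nfkbiz lie below the dashed list median; the flat upper rows are peaks tied at the score 3100.00.

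The rule's limit of 100 kb cut through one pair of peaks. The farthest untreated peak inside it, at Tnfaip3, lay 99930 bp away with a width of 6166 bp and a score of 3100.00, while its post-caerulein counterpart lay 100114 bp away (5968 bp, score 1585.03), just outside. Only the first was counted as a peak near the gene, and only its bases up to the limit entered the covered length. Among the 110 places marked in both lists, the pair was compared at full length. Neither is list-only. The limit also ran through peaks at Nfkb1, Rela and Bcl3, whose covered length likewise ended at the limit. The farthest post-caerulein peak inside lay 97064 bp from Nfkb1 (2972 bp, score 1898.19), and the nearest untreated peak outside lay 102433 bp from Rel (1799 bp, score 1108.79).

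The other genes of the pathway were examined in 5 lists of 63 genes. Of these, 35 had a longer covered length post-caerulein, 27 a longer one untreated, and Ccl2 had no peak in either list. The share of all genes with a longer length in either condition was not counted, here or for the single lists below. Post-caerulein-only peaks were the more numerous kind at 26 genes (30.0% of all protein-coding genes), untreated-only peaks at 18 (26.8% of all) and neither at 19. Covered length was at least 25% longer post-caerulein at 9 of the 62 genes with peaks (15.0% of all such genes) and at least 25% longer untreated at 6 (13.0%). The genes are not independent: among those at least 25% longer post-caerulein, Cxcl1 and Cxcl2 share their peaks and Birc2 shares its region with Birc3. Cxcl5 (1.28-fold) is also among them and lies on the same chromosome as Cxcl1 and Cxcl2. An overlap of its window with theirs was not examined. The median difference was 0.53 kb, against 0.0 kb over all protein-coding genes (quartiles -1.5 and 2.2 kb).

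Among 10 receptors 6 were longer and 4 shorter post-caerulein, with a median difference of 3.13 kb. Tnfrsf1a, the main receptor of tumour necrosis factor, had 82.8 kb untreated and 96.8 kb post-caerulein. Its neighbour on chromosome 6, the lymphotoxin receptor gene Ltbr, had 67.8 and 80.0 kb, with windows that overlap. Il1r1, the interleukin-1 receptor, had 8.2 kb in 4 peaks and 15.5 kb in 9 peaks, 5 of them post-caerulein-only. Of 14 adaptors and ubiquitin ligases 9 were longer and 5 shorter, with a median of 0.62 kb. The largest differences were at Birc2 (23.2 and 35.3 kb), which shares its region with Birc3, at Rbck1 of the linear ubiquitin ligase (44.8 and 54.6 kb) and at the kinase Irak4 (10.2 and 18.8 kb), with 5 post-caerulein-only peaks. The 9 kinases and their partners were 5 longer and 4 shorter (median 1.46 kb). Ikbkb, the catalytic IkB kinase of the canonical arm, had 42.1 kb untreated and 48.6 kb post-caerulein, Tbk1 had 48.1 and 54.4 kb, and Tab1 had 72.0 and 67.1 kb.

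Among the 10 other inhibitors 4 were longer and 6 shorter post-caerulein, with a median difference of -1.71 kb. N4bp1, an inhibitor of NF-kB signalling, had 52.2 kb untreated and 35.1 kb post-caerulein, with 4 untreated-only peaks and no post-caerulein-only peak. Tnip2, a binding partner of A20, had 29.9 and 22.8 kb, and Nfkbie, which encodes IkBepsilon, had 19.8 and 26.0 kb. Among the 20 target genes 11 were longer and 8 shorter (median 0.34 kb). The chemokine gene Cxcl5 had 65.4 kb untreated and 83.6 kb post-caerulein with 4 post-caerulein-only peaks, and Lcn2, the iron-binding lipocalin, 68.3 and 78.6 kb. The neighbouring chemokine genes Cxcl1 and Cxcl2 share 1 set of peaks, with 26.8 and 35.3 kb. Il6 had a single peak of 1.9 kb in each list.

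**Figure D5:**
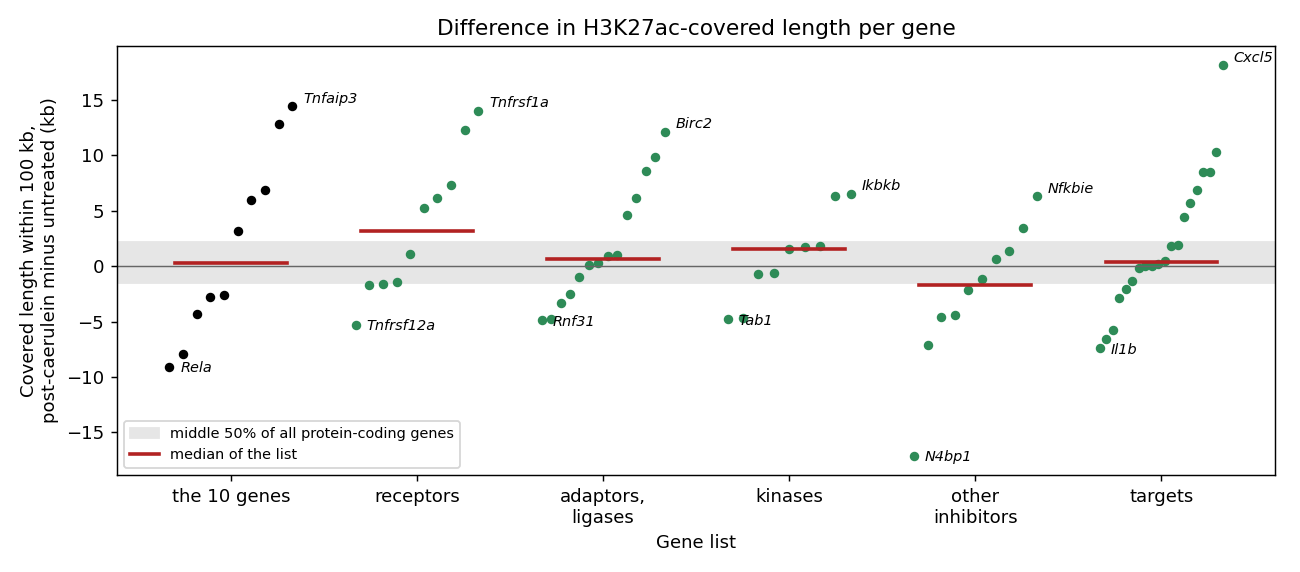
Each point is 1 gene, and its height is the covered length within 100 kb post-caerulein minus untreated (kb), for the 10 genes and 5 further lists of the pathway. Red bars are list medians, the grey band holds the middle 50% of all protein-coding genes (-1.5 to 2.2 kb), and the lowest and highest gene of each list are named; points lie on both sides of 0 in every list.

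The labelled cell type was checked with marker genes, counting a gene where a peak came to within 1 kb of its start or end coordinate. All 9 epithelial and ductal markers were counted in both lists, among them Epcam, Krt19 and Sox9. Of 8 acinar markers only Bhlha15 was marked, in both lists, and none of the 8 mesenchymal, 6 endothelial and 8 endocrine markers was. Of 10 immune markers Spi1, Cd79a and Cd68 were marked in both lists and Ptprc, the pan-leukocyte gene CD45, in the post-caerulein list alone (3 and 4 of 10). The share of all genes marked by this rule was not counted. For scale, 50.6% of all promoter windows lay wholly inside a peak of both lists. The rule also counts a peak at either end of a gene, even where a neighbouring gene is as near. These counts alone therefore do not show that immune cells were present. Since the NF-kB genes are also active in immune cells, the marker counts stand beside the results above, and a part of immune cells in those results was not tested.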

How the data were processed

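The deposited lists hold 1 row per peak, with start and end as chromosome positions, and a score that the authors' files leave undefined. Per the submitters' processing notes, Trimmomatic 0.38, Bowtie2 2.2.6, SAMtools and MACS 1.4 were used with GRCm38/mm10; caller options and the control library are not given in the sources used here. To each library belongs 1 deposited list. Here, peaks were compared by an overlap of at least 1 bp and assigned to RefSeq gene bodies (GRCm38.p6) within 100 kb, with Python 3.11, pandas 2.3.3, numpy 2.4.6 and scipy 1.17.1. The overlap code was tested on simulated data. Exons, introns and strand of Nfkb1, Relb and Nfkbiz were not analysed here. Intervals are exact (Clopper-Pearson). The genes and lists were chosen with earlier results of these data known. Named are the 10 genes, their list-only and broadest peaks, the genes nearest to list-only peaks in most cases, and the 3 largest differences per pathway list. Of the promoter table only the 250 bases before each start were used. Alternatives were other overlap rules, score limits, peak numbers, windows, merging and nearest-gene assignment.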

Additional observations from a re-analysis of the deposited data

How the results depend on the processing

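The 17 post-caerulein-only and 11 untreated-only peaks depend on score and window. Held to their list's median score they were 1 and 0, and the genes with more of one kind 1 and 0. Within 10 kb they were 5 and 3, within 50 kb 9 and 7, and as peaks nearest to the gene 9 and 2, with 0 genes left with more untreated-only peaks. With peaks merged within 1 kb, 7 were untreated-only. The windows' joint length, 103.4% of untreated, was 109.9% over nearest peaks. In the direction of covered length, Rela (1.5 kb), Relb (0.5 kb) and Bcl3 (0.5 kb) reversed within 10 kb, and Relb (2.6 kb) over nearest peaks. Of 40 alternatives for single genes 17 moved little, 19 moved and 4 reversed. Those that moved little include every gene under equal numbers of highest-scored peaks. That setting removes only the lowest-scored post-caerulein peaks, and only Tnfaip3 changed (14.4 to 13.4 kb). Alternatives for the role groups were chosen after seeing the data. The subunit genes, at 91.0%, gave 96.1% (10 kb), 98.7% (nearest), 94.0% (peaks at or above the median score) and 95.9% (without Rela and Relb). The IkB-family and feedback genes, at 111.5%, gave 109.2%, 113.3%, 107.0% and, without Tnfaip3 and Birc3, 104.1%, and within 50 kb 110.3%. Beyond the smaller windows and fewer peaks that these settings impose, the cause was not tested. No paired analysis was possible because there is 1 library per condition, which also allows none to be left out. Depth is unknown, so the counting error of list-only calls and peak edges could not be estimated.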
